A study of Mus musculus with 6 samples.

Results

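The genes described here are 9 genes of microtubule-associated proteins: Map2, Mapt, Map4, Map1a, Map1b, Map6, Map7, Stmn1 and Dclk1. They were taken by symbol from a table of 41449 rows, and each symbol had 1 row. The set was put together around Map2, which was chosen by its FPKM in the knockout libraries against the wild type ones, so for all 9 genes the values of that comparison are a description: no p is given for them, and the 1 count of calls below is printed with its background and supports nothing. Total RNA of whole lenses from mice aged 2 months was sequenced in 6 libraries, each from 2 pooled lenses. The 3 wild-type libraries (WT) came from C57BL/6 mice. The 3 libraries of the fibronectin conditional knockout (FNcKO) came from mice of a mixed background of C57BL/6, 129 and FVB/N. The labels call the 3 libraries of a genotype biological replicates; the sources used here do not name the Cre line or the cells in which it acts. Genotype and strain background divide the libraries in the same way, so their parts in any difference below cannot be told apart.

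Microtubules are hollow polymers of alpha and beta tubulin. Microtubule-associated proteins bind along them or to free tubulin and set how stable the polymers are and which motors travel on them. In the lens, microtubules run along the length of the elongating fiber cells and carry cargo to their growing ends. Map2 and Mapt (tau) are best known from neurons, where Map2 marks dendrites and tau the axon, and Map4 is the related protein of most other cells. Map1a and Map1b are large proteins cut into a heavy and a light chain. Map6 protects microtubules from the cold, and Map7 recruits the motor kinesin-1. Stmn1 (stathmin) binds tubulin dimers and favours disassembly, while Dclk1 joins a doublecortin domain to a kinase.

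Map2, Mapt and Map4 are relatives, and the bases that code for one of their tubulin-binding repeats show both how alike the genes are and that their fragments can be told apart. The stretch below was read from GENCODE transcripts (GRCm38), all on the plus strand, and is coding sequence. Capitals mark the bases that are the same in all 3 genes.
Map2: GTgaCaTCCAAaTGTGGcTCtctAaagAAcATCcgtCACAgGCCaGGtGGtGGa
Mapt: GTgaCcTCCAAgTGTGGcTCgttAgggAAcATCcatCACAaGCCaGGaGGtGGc
Map4: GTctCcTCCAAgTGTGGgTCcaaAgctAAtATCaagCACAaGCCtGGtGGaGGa
Of these 54 bases, 34 were the same in all 3 genes. Map2 shared 44 with Mapt and 36 with Map4, and Mapt and Map4 shared 39. In each gene the stretch is cut by an intron at the same place, after 46 bases, with the last 8 bases in the next exon. In Map2 these parts lie at chr1:66433550-66433595 and chr1:66438254-66438261, in exons 13 and 14 of the 15 of its longest transcript. In Mapt they lie at chr11:104321387-104321432 and chr11:104322428-104322435, and in Map4 at chr9:110078039-110078084 and chr9:110079781-110079788. Over all their annotated transcripts, the longest run of bases that Map2 shared with any other member was 15.

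Shared sequence was larger for 1 member. Of the windows of 50 bases in the longest transcript of Stmn1, 36.5% also occur in transcripts of another gene, nearly all in its processed pseudogene Gm11223. That row stood at 5.01, 4.37 and 4.72 FPKM in WT and at 5.28, 4.44 and 5.2 FPKM in FNcKO, so the values of Stmn1 are uncertain to the extent that fragments were divided between the 2 rows. FPKM is the number of fragments per length of transcript, scaled for the depth of the library. How these libraries were scaled to each other is not stated in the sources used here. In Map7 4.62% of the windows were shared, with an antisense gene, in Map1a 1.89%, with the overlapping Ppip5k1, and in Map2 0.274%, with the antisense Gm10558. The sources used here do not say whether counting used the strand, so reads of such overlaps cannot be assigned.

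In WT lenses the 9 genes covered a wide range, led by the form found outside neurons. Map4 was the most abundant, at 36.8 and 42.8 FPKM in WT replicates 1 and 3; WT replicate 2 has no value there, since its column ends within chromosome 9. Stmn1 (21 ± 0.823 FPKM, SD, n = 3) and Map7 (20.6 ± 0.324 FPKM, SD, n = 3) came next, and their ranges over libraries overlapped. Map1b (10.8 ± 0.935 FPKM), Map2 (5.65 ± 0.188 FPKM), Map6 (4.2 ± 0.733 FPKM), Mapt (1.49 ± 0.126 FPKM), Map1a (0.91 ± 0.102 FPKM) and Dclk1 (0.557 ± 0.0445 FPKM; SD, n = 3 each) followed, and among these no range overlapped that of its neighbour in the order. All 9 ranks were the same with any single WT library left out. Among the 10149 genes whose mean reached 1 FPKM, the WT mean of Map4 was higher than 91.1% of them, that of Map2 higher than 62% and that of Mapt higher than 14.5%. Map1a and Dclk1 lay below this minimum and are described by their FPKM only.

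**Figure D1:**
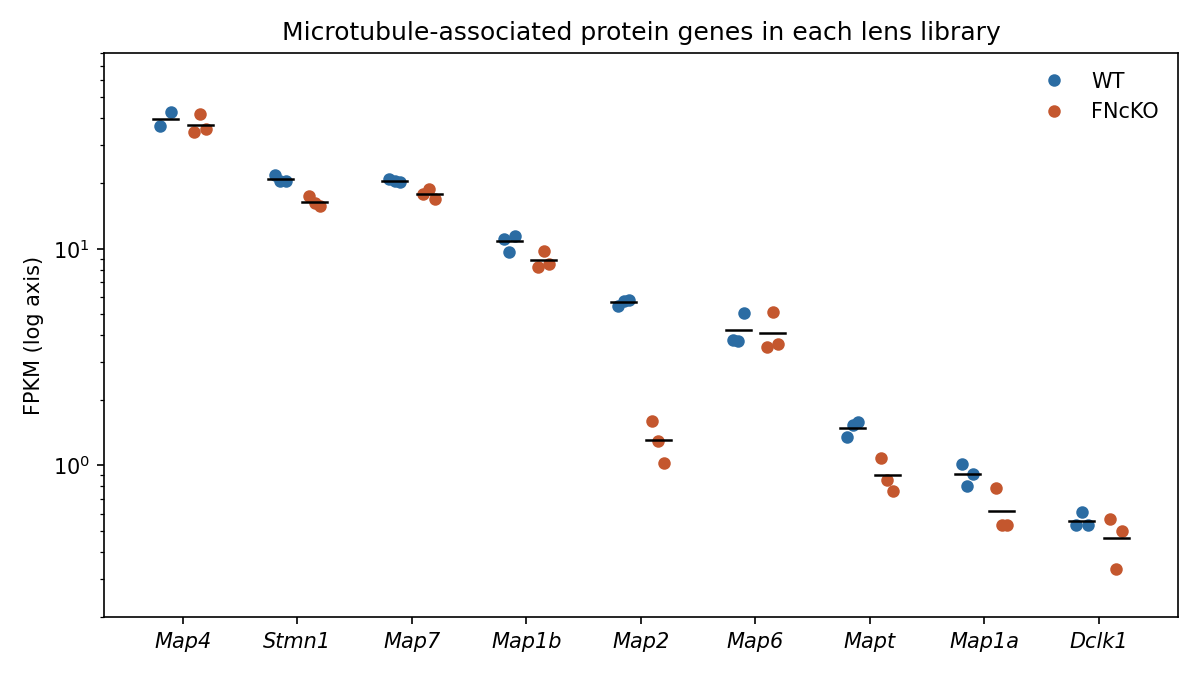
FPKM of each gene (log axis) in the 3 WT (blue) and 3 FNcKO (orange) libraries, 1 point per library and a black bar at the group mean, ordered by the WT mean; Map4 has 2 WT points. Map2 drops from between 5.44 and 5.77 FPKM in WT to between 1.03 and 1.6 FPKM in FNcKO, while the other FNcKO means lie between 60.3% (Mapt) and 97.3% (Map6) of WT.

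Fn1, the targeted gene, stood at 0.135, 0.188 and 0.253 FPKM in WT and at 0.128, 0.0482 and 0.0942 FPKM in FNcKO. These values are low in both genotypes, cover the whole gene and do not show whether its floxed part is present. Lens markers matched the labelled tissue: 13 fiber cell markers summed to between 221261 and 233475 FPKM in WT and between 225416 and 242878 FPKM in FNcKO, with Crybb2 and Cryaa the most abundant. The sums overlapped, but of the 14 markers listed 7 were higher and 1 was lower in FNcKO without overlap, and 6 overlapped. Of the 10149 genes whose mean reached 1 FPKM, 25.6% did not overlap in either direction. Depth, estimated from the steps in low values of single-exon genes, was about 26200000 to 31600000 fragments for the WT libraries and about 19700000 to 22000000 for the FNcKO ones.

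Map2 (chromosome 1, 66175246 to 66442583, GRCm38) was at 5.44, 5.75 and 5.77 FPKM in the WT libraries and at 1.6, 1.29 and 1.03 FPKM in the FNcKO libraries. Every FNcKO value lay far below every WT value, and the spread was wider in FNcKO, where the SD was 21.7% of the mean against 3.33% in WT. The FNcKO mean (1.31 ± 0.284 FPKM, SD, n = 3) was 23.1% of the WT mean, 4.33-fold lower, with a log2 change of -1.53 (SE 0.101) on the log2(FPKM + 1) scale. By the estimated depths and its longest transcript of 6258 nucleotides, Map2 rested on about 1040, 989 and 917 fragments in WT, and in FNcKO on about 210, 171 and 123, numbers that are approximate because the depths are. The table holds 1 row for the gene, and its long and short isoforms were not told apart. In whole lenses, fewer cells with a transcript and less of it per cell cannot be told apart either.

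Ratios within a library do not depend on how libraries were scaled to each other. Map2 stood at 26, 27.9 and 28.5% of the FPKM of Map7 in WT and at 8.98, 6.82 and 6.13% in FNcKO. Of the sum of the 8 members with a value in every library, Map2 made up between 8.23 and 9.1% in WT and between 2.18 and 3.12% in FNcKO. Both shares separated the genotypes completely, which restates the choice of Map2. As percent of Map7, Mapt (6.46, 7.45 and 7.86% in WT; 6.05, 4.55 and 4.53% in FNcKO) did not overlap either. Nor did Stmn1 (105, 99.5 and 101% in WT; 98.8, 85.7 and 92.8% in FNcKO). The percents of Map4, Map1a, Map1b, Map6 and Dclk1 overlapped. With Map1b as the reference, Mapt (12.2, 15.8 and 13.9% in WT against 13, 8.74 and 9.01% in FNcKO) overlapped. So did Stmn1 (198, 211 and 179% in WT against 213, 165 and 185% in FNcKO). Map4 was then higher in FNcKO without overlap (332 and 373% in WT against 416, 427 and 421%). Separation of the other members thus depended on the reference, and its share over all genes was not measured. In the order of levels Map2 moved from above Map6 in WT to below it in FNcKO, where its range overlapped that of Mapt.

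The other 2 genes of its family differed from it in size of change. Mapt, the tau gene, was at 1.35, 1.53 and 1.59 FPKM in WT and at 1.08, 0.858 and 0.765 FPKM in FNcKO. The groups did not overlap, and the FNcKO mean was 60.3% of the WT mean (log2 change -0.39, SE 0.0995). Map4 was at 34.4, 41.9 and 35.8 FPKM in FNcKO against 36.8 and 42.8 in WT. Its groups overlapped and its means differed 1.07-fold (log2 change -0.09, SE 0.122).

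Among the large Map1 proteins, Map1b was at 11.1, 9.69 and 11.5 FPKM in WT and at 8.27, 9.81 and 8.49 FPKM in FNcKO. FNcKO replicate 2 lay above WT replicate 2, so the groups overlapped, at a mean of 82.4% of WT. Map1a was at 1.01, 0.807 and 0.912 FPKM in WT and at 0.787, 0.533 and 0.53 FPKM in FNcKO, and the highest FNcKO value lay just under the lowest WT value. Its FNcKO mean was 67.7% of the WT mean, resting on about 121 to 198 fragments, against 267 to 372 in WT.

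Map6, which stabilises microtubules, was at 3.81, 3.74 and 5.05 FPKM in WT and at 3.53, 5.09 and 3.65 FPKM in FNcKO, with 1 high library in each group and means within 1.03-fold. Map7, the kinesin-1 recruiter, was at 20.9, 20.6 and 20.3 FPKM in WT and at 17.8, 18.9 and 16.9 FPKM in FNcKO. Its groups did not overlap although the means differed 1.15-fold only, since the spread in WT was 1.57% of the mean. Stmn1, the tubulin-sequestering protein, was at 21.9, 20.5 and 20.5 FPKM in WT and at 17.6, 16.2 and 15.7 FPKM in FNcKO, also without overlap and at 78.6% of WT. Dclk1 was at 0.531, 0.608 and 0.532 FPKM in WT and at 0.568, 0.331 and 0.496 FPKM in FNcKO, with overlap.

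All 9 FNcKO means lay below the WT means. Of the 7 members above the minimum, 1, Map2, passed the limma comparison over all genes (Benjamini-Hochberg adjusted p of 0.05), where 1.89% of the 10149 genes tested did, 1.03% as lower and 0.857% as higher in FNcKO. The groups did not overlap, with FNcKO lower, for 4 of the 7 (Map2, Mapt, Map7 and Stmn1), against 16.3% of all genes tested. Because the comparison itself chose Map2, its call restates that choice. The FNcKO mean of Mapt (0.9 FPKM against 1.49 FPKM in WT) lay under the minimum, so Mapt was tested only through its WT level. Nothing is read from these counts. The median log2 change of the 7 was -0.25, beside -0.04 for all genes tested, of which 60.3% had a change under 0.

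The sign of the smaller differences depended on how libraries were scaled. With every library set to the same FPKM total, the median of all genes moved to 0.15, and with that total taken without crystallins to 0.29. Under the latter Map4, Map1b, Map6, Map7 and Stmn1 all stood above 0, between 0.08 and 0.33 on the log2 scale. Relative to the median of all genes, Map2 then stood at -1.53, Mapt at -0.46, Stmn1 at -0.22, Map1b at -0.16, Map7 at -0.08, Map6 at 0.02 and Map4 at 0.03. Map2 lay between -1.5 and -1.23 and Mapt between -0.37 and -0.16 under the 4 other scalings, and neither changed sign.

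**Figure D2:**
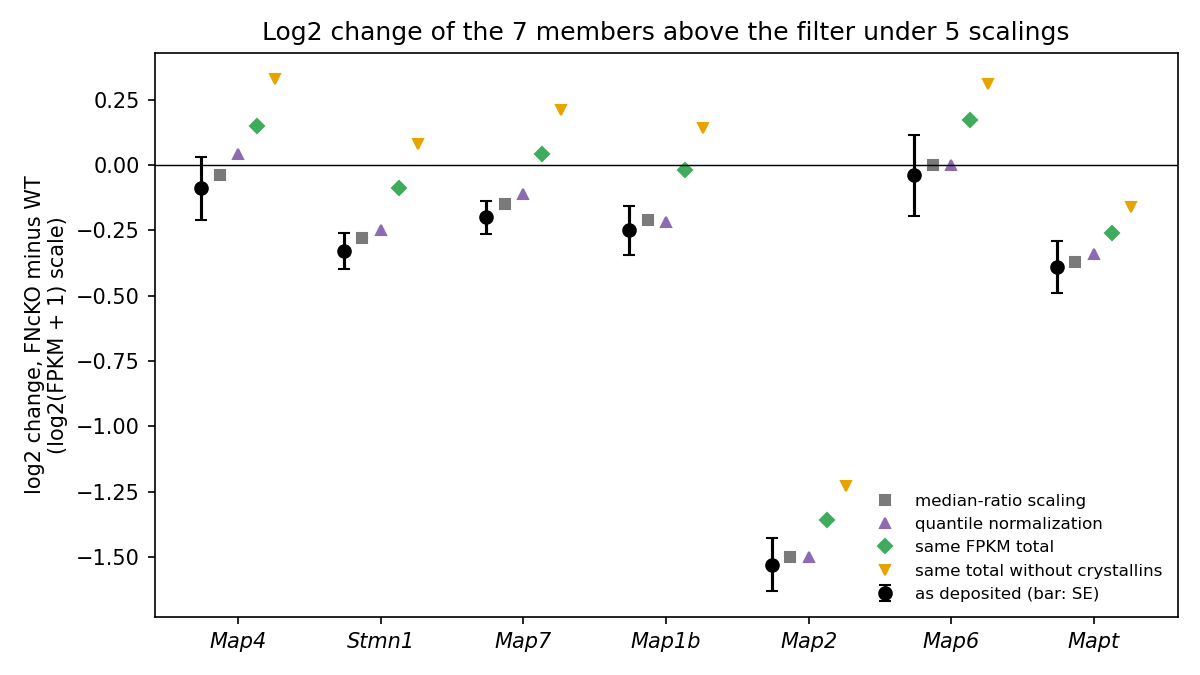
Log2 change (FNcKO minus WT) of the 7 members above the minimum of 1 FPKM, as deposited (black, with SE) and under 4 other scalings between libraries (coloured symbols). Map2 lies between -1.53 and -1.23 under all 5, while Map4, Map1b, Map6, Map7 and Stmn1 lie on both sides of 0.

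Map2 lies on the same chromosome as Fn1, with 5.14 Mb between the end of Map2 and the start of Fn1; the other members lie on other chromosomes. Within 1 Mb of Map2 the table has 19 other rows, of which 8 were above the minimum and 0 passed limma's test over all genes. Of all genes tested 1.89% passed, so a count of 0 in 8 is near that share. The nearest tested gene before Map2, the gamma crystallin gene Crygf, was at 9030, 9970 and 9110 FPKM in WT and at 12700, 12600 and 10100 FPKM in FNcKO (log2 change 0.33, adjusted p = 0.266). The gamma crystallins are near-identical, so that value is uncertain. After Map2, Rpe (log2 change 0.10) and Kansl1l (0.14) overlapped between groups. Acadl, an acyl-CoA dehydrogenase of fatty acid oxidation that lies 388.3 kb after Map2, was at 6.6, 7.13 and 8.01 FPKM in WT and at 5.08, 4.24 and 4.18 FPKM in FNcKO (log2 change -0.59, SE 0.0986, limma adjusted p = 0.0516). Its groups did not overlap, but it missed the threshold. Idh1, Pikfyve, Gm15793 and Lancl1, the other tested neighbours, had log2 changes between -0.12 and 0.08 and overlapping groups.

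Unc80, the gene next to Map2, was below the minimum, at 0.168, 0.157 and 0.314 FPKM in WT and 0.174, 0.196 and 0.0969 FPKM in FNcKO. Of 7 tested genes between Map2 and Fn1, 1 passed the test, beside 1.89% of all genes tested. This was Erbb4, a neuregulin receptor, with the opposite sign to Map2. It was at 0.931, 0.691 and 0.943 FPKM in WT and 1.98, 2.74 and 2.33 FPKM in FNcKO (log2 change 0.85, SE 0.116, limma adjusted p = 0.0331). Its WT mean of 0.855 FPKM lay under the minimum, so Erbb4 was tested only through its FNcKO level. Nothing is read from this count. Atic, the tested gene closest to Fn1, had a log2 change of -0.04 (adjusted p = 0.896).

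**Figure D3:**
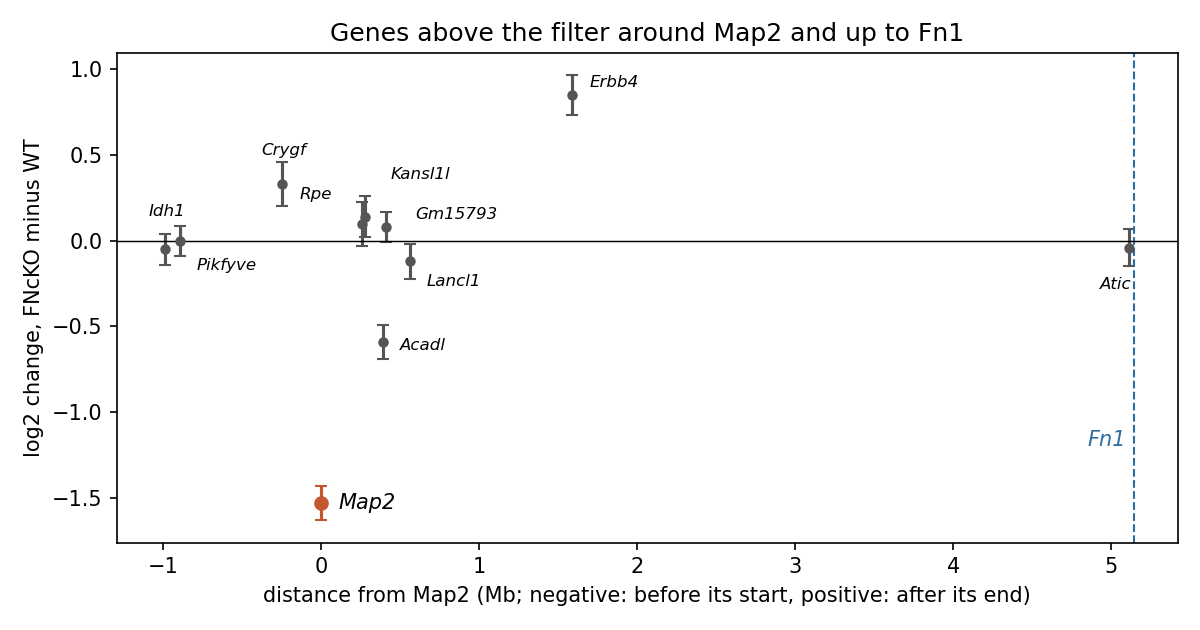
Log2 change (FNcKO minus WT, with SE) of genes above the minimum of 1 FPKM, by distance from Map2 in Mb, from 1 Mb before Map2 to Fn1 (dashed line). Map2 stands at -1.53, Acadl at -0.59, Erbb4 at 0.85, and the other 8 genes between -0.12 and 0.33.

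Other genes of the microtubule system were taken from 7 lists with 122 genes, of which 91 were above the minimum. None of the 91 passed limma's test over all genes, with the smallest adjusted p at 0.0726; at p under 0.05 with no adjustment there were 18 (19.8%), and 18.1% over all genes. A count of 0 does not show that these genes did not differ. Their median log2 change was -0.07, beside -0.04 for all genes tested. A change under 0 was found for 61 of the 91 (67%), beside 60.3% of all genes tested.

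Alpha and beta tubulins, the building blocks, had 10 of 14 genes above the minimum, 5 with a log2 change above 0 and 5 under. Tuba1a, the most abundant, was at 112, 122 and 125 FPKM in WT and at 104, 107 and 96.1 FPKM in FNcKO (log2 change -0.22, limma adjusted p = 0.216). Tubb5 was at 50.4, 51.5 and 53.3 FPKM in WT and at 48.5, 55 and 52.9 FPKM in FNcKO, with overlap. The neuronal beta tubulin Tubb3 stayed below the minimum, at 0.146 to 0.543 FPKM in WT and 0.194 to 0.365 FPKM in FNcKO. Alpha tubulin genes are relatives of each other, as are beta tubulin genes. Their shared sequence was not measured, so how far fragments were divided among their rows is uncertain.

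Of 14 tested genes of other microtubule-associated proteins, 10 had a log2 change under 0, beside 60.3% of all genes tested. The most abundant were Tppp3, which bundles microtubules, and Dst (dystonin, a spectraplakin that links microtubules to other filaments). Tppp3 was at 49.9, 48.4 and 54.5 FPKM in WT and at 41.4, 43.5 and 40.1 FPKM in FNcKO (log2 change -0.28, limma adjusted p = 0.129). Dst was at 23.7, 24.4 and 26.4 FPKM in WT and at 32.1, 37.3 and 30.4 FPKM in FNcKO (log2 change 0.40, limma adjusted p = 0.109, and 0.0277 with median-ratio scaling, where it was the 1 list gene to pass). The nearest relatives of 2 members, Stmn2, Stmn3 and Stmn4 for Stmn1 and Dcx, Dclk2 and Dclk3 for Dclk1, all lay below the minimum.

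End-binding and minus-end proteins had 13 tested genes, led by Mapre3 (20.9, 21.4 and 20.7 FPKM in WT; 20.5, 21 and 21 FPKM in FNcKO) and Clip3 (log2 change -0.20, limma adjusted p = 0.216). Mapre3 differed by less than the spread of its libraries. In the same list Clip4 was at 1.62, 1.37 and 1.74 FPKM in WT and 3.18, 2.6 and 2.43 FPKM in FNcKO (log2 change 0.53, limma adjusted p = 0.0751). In the list of tubulin folding and modification, with 15 tested genes led by Svbp and Tbca, the glutamylase gene Ttll7 was at 2.57, 2.26 and 2.19 FPKM in WT and 1.15, 1.57 and 1.05 FPKM in FNcKO (log2 change -0.57, limma adjusted p = 0.0726). Clip4 and Ttll7 were chosen after their values were seen, and both missed the threshold without overlap between groups.

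Of 22 motor genes, Kif1a (log2 change -0.10) and Klc1 (-0.02) were the most abundant, and the changes ran from -0.31 for the dynactin subunit Dctn2 to 0.25 for the dynein chain Dync1li1. The 10 tested kinases that act on these proteins, led by Mark3 and Camk2d, lay between -0.18 and 0.10. The 7 tested severing enzymes, led by Katnal1 and Spast, lay between -0.19 and 0.02.

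**Figure D4:**
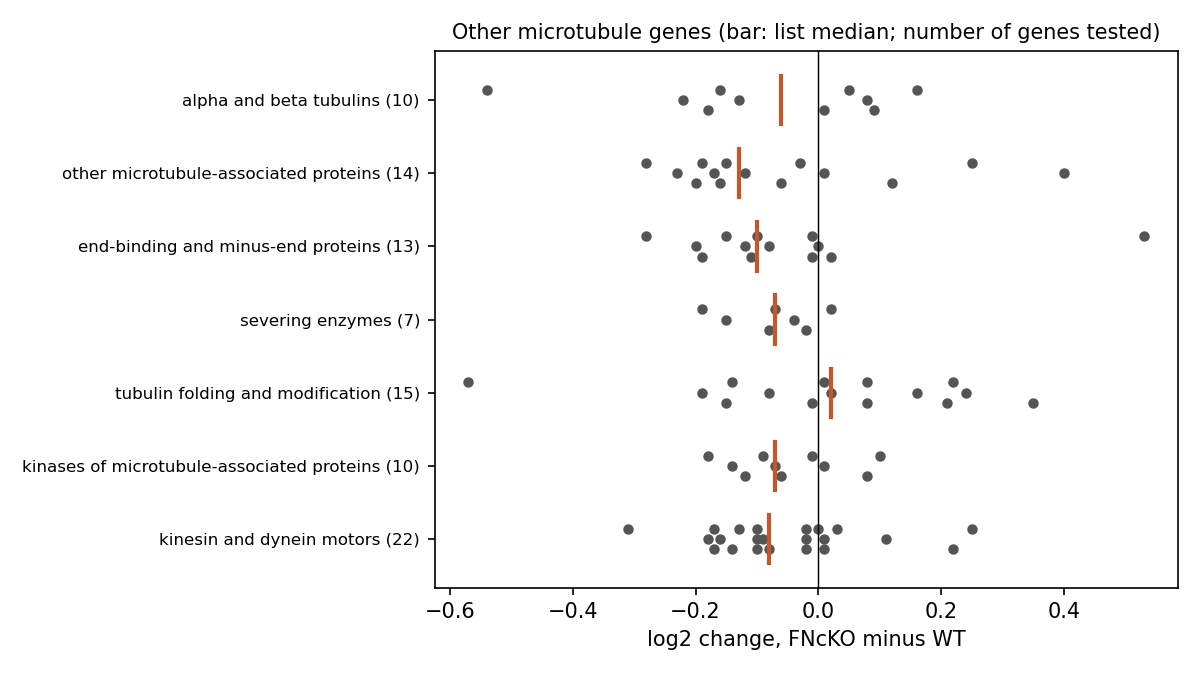
Log2 change (FNcKO minus WT) of 91 microtubule genes that are not members, 1 point per gene, by list, with the number of genes tested in brackets and an orange bar at the list median. The points lie between -0.57 and 0.53 and the medians between -0.13 and 0.02.

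Map2 is a marker of neurons, and a lens dissected from the eye can carry RNA of retina and ciliary tissue. Of 17 neuron markers 4 were above the minimum, and none passed limma's test. The sum of 15 of them was 149.5, 161.1 and 149.2 FPKM in WT and 134.9, 149.4 and 135.9 FPKM in FNcKO (exact two-sided permutation p = 0.2), highest in WT replicate 2, and Uchl1 held between 93.3 and 97% of it. Without Uchl1, which was singled out after the values were seen, 14 neuron markers summed to 9.457, 4.786 and 10.03 FPKM in WT and to 6.776, 5.468 and 5.989 FPKM in FNcKO (exact two-sided permutation p = 0.4). The groups overlapped, with the lowest sum in WT replicate 2. Rbfox3, a defining neuronal marker, was at or below 0.135 FPKM in every library, and Snap25 (3.66, 1.56 and 3.75 FPKM in WT; 2.63, 1.4 and 1.64 FPKM in FNcKO) overlapped between groups. Over all genes tested, 25.6% did not overlap between groups, in either direction. That share covers only genes above the minimum, while most neuron markers lay below it, so it is not a like background for them. Of the 17 neuron markers 15 overlapped, and the other 2 were lower in FNcKO. These were Nefl, at 1.4, 1.22 and 1.27 FPKM in WT and 1.11, 1.07 and 0.927 FPKM in FNcKO (limma adjusted p = 0.363), and Syp, below the minimum, at 1.22 and 1.01 FPKM in WT replicates 1 and 3 and 0.802, 0.649 and 0.259 FPKM in FNcKO.

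Photoreceptor markers were also lowest in WT replicate 2. The sum of 14 of them was 70.83, 29.79 and 81.49 FPKM in WT and 43.41, 43.56 and 43.51 FPKM in FNcKO (exact two-sided permutation p = 0.4). Of 13 tested, 12 had a log2 change under 0, beside 60.3% of all genes tested. Of the 18 listed, 14 overlapped between groups and the other 4 were lower in FNcKO. The most abundant marker, Gnat1, has no value in WT replicate 2 and is not in the sum; it was at 18.9 and 22.2 FPKM in WT and 8.84, 9.63 and 9.77 FPKM in FNcKO and passed as lower (log2 change -1.05, limma adjusted p = 0.0215). All 14 summed markers were lowest in WT replicate 2 among the WT libraries, where Map2 was at 5.75 FPKM, about its level in the other 2 WT libraries. Glia markers, led by Aqp4 and Gfap, summed to between 7.388 and 8.789 FPKM in WT and between 5.943 and 8.326 FPKM in FNcKO (exact permutation p = 0.3). Of the 8 glia markers 5 overlapped, while 2 were lower and 1 was higher in FNcKO without overlap.

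The summed markers of pigment cells and of the ciliary body and iris did not overlap between genotypes, but a few genes carried each sum. Pigment cell markers, led by Ttr and Oca2, summed to between 11.57 and 18.95 FPKM in WT and between 6.674 and 8.459 FPKM in FNcKO. Ttr had a mean of 8.85 FPKM in WT and 3.68 FPKM in FNcKO; 5 of the 8 markers overlapped between groups, and the means of Tyr and Tyrp1 were 108 and 134% of WT. Those of the ciliary body and iris, led by Optc and Aqp1, summed to between 19.83 and 27.43 FPKM in WT and between 50.13 and 67 FPKM in FNcKO. Optc (18.3 and 42.9 FPKM on average) and Aqp1 (5.27 and 15.6 FPKM) made up nearly all of it, and the other 4 markers overlapped. Aqp1 passed as higher in FNcKO (log2 change 1.39, limma adjusted p = 0.0432), and Optc did not pass (limma adjusted p = 0.0682). Epithelial markers of the lens, led by Cd24a and Igfbp7, summed to between 1359 and 1413 FPKM in WT and between 1445 and 1665 FPKM in FNcKO, mostly through Cd24a (838 FPKM on average in WT and 1010 FPKM in FNcKO). Epha2 and Slc7a5 passed as higher, while 6 of the 9 overlapped and 4 had a log2 change under 0, among them Foxe3 (-0.28, limma adjusted p = 0.374). Each of these 3 sums gave an exact two-sided permutation p of 0.1, below which a comparison of 3 with 3 libraries cannot go. Beside the counts of overlap, 25.6% of all genes tested did not overlap. That share leaves out genes below the minimum, which the marker counts include. Only 2 of the 8 pigment cell markers and 2 of the 8 glia markers were tested. The share is therefore not a like background for those lists, and nothing is read from their counts. The part of these tissues in the level of Map2 was not tested.

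**Figure D5:**
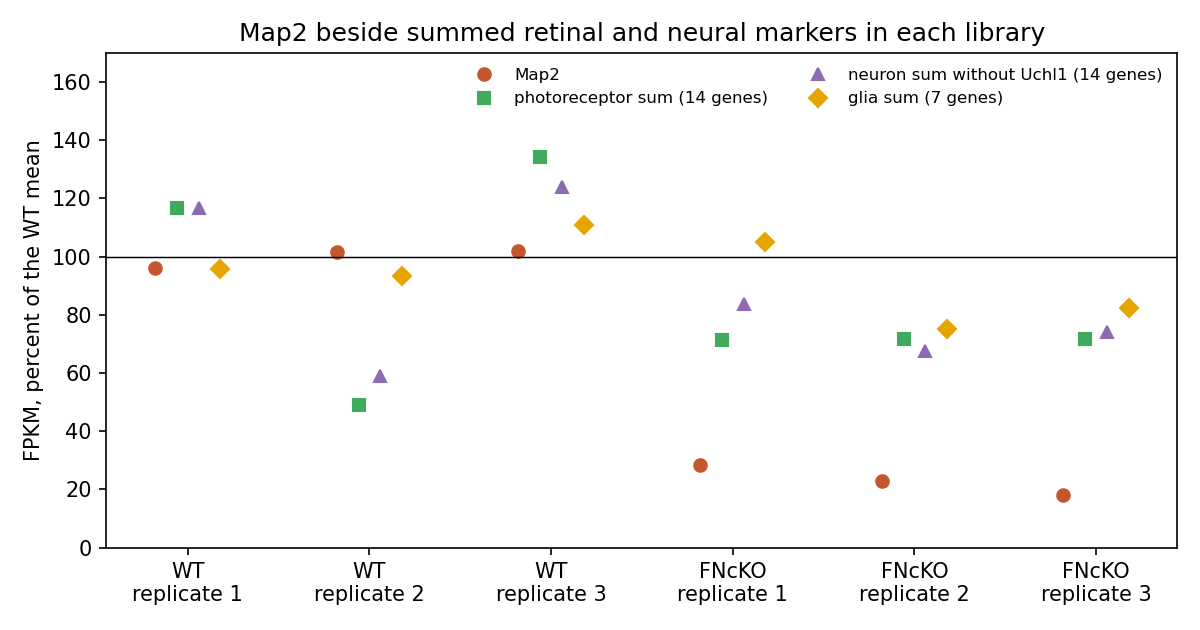
Map2 (circles) and the summed FPKM of photoreceptor (squares), neuron without Uchl1 (triangles) and glia markers (diamonds) in each library, as percent of the WT mean. In WT replicate 2 the photoreceptor sum is 29.79 FPKM against 70.83 and 81.49 in the other WT libraries, while Map2 is at 5.75 FPKM against 5.44 and 5.77.

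The genes whose log2(FPKM + 1) followed that of Map2 most closely over the 6 libraries were Rap1gap (Pearson r = 0.9985), Col6a3 (0.9963), H2-T24 (0.9957), Cd44 (0.9946) and Plekhh2 (0.9943), among 9406 genes compared. The 6 points fall into 2 groups by genotype, so r mostly reflects the difference between them, and 192 genes had r above 0.95. Rap1gap, a GTPase-activating protein for Rap1, was at 2.87, 2.81 and 2.85 FPKM in WT and at 1.34, 1.12 and 0.974 FPKM in FNcKO. Its FNcKO libraries stood in the same order as those of Map2, which its choice by r favours. The 5 genes lie on chromosomes 4, 1, 17, 2 and 17. Among the members, Stmn1 had r = 0.97, Mapt 0.96, Map7 0.92, Map1b 0.77 and Map6 0.10.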

How the data were processed

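The authors deposited FPKM values in 1 table, whose 6 library columns were matched to samples by title. Cuffdiff 2.2.1, TopHat2 2.1.0, cutadapt 1.12 and FastQC, and the builds mm10 and GRCm38.p5, come from the submitters' processing notes. The sources used here do not give their order, the annotation, the scaling between libraries or the use of strand. WT replicate 2 has no value in 3578 rows (8.63%), from chromosome 9 at 51213690 to the end of the table, and 1 unreadable value was set to missing; such genes were fitted on the other libraries. Starts were raised by 1 to count from 1, which gave the RefSeq start of Fn1 (71585473).

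From the deposited FPKM, log2(FPKM + 1) of the 10149 genes whose mean reached 1 FPKM was compared between genotypes with limma 3.58.1 in R 4.3.3 (trend, two-sided, Benjamini-Hochberg over all genes, threshold 0.05) and tested on simulated data. With each gene given the root mean square spread of genes of similar level, which was tried first, most of the changes put in were missed. With the smaller median spread, tried after that result was seen, nearly all were found, with a few false calls. Recovery thus depends on the spread assumed, and neither outcome is used to read a count of 0. Marker sums were compared by exact permutation. No covariate was used, since strain divides the libraries as genotype does; p-values measure the spread between these libraries.

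Depth was found by a search for the number of fragments that brought low values of single-exon genes closest to whole numbers, with 200 nucleotides taken off each length. Offsets of 0, 100, 150 and 200 were tried and the best match, at the end of that range, was kept. The search ran from 15000000 to 40000000 fragments, narrowed after higher multiples were seen to match about as well; up to 80000000, FNcKO replicate 1 matched best at 66200000 (65.1%) in place of 21700000 (62%). Between 62 and 70.4% of values lay within 0.15 of a whole number, where 30% would at a depth fixed beforehand. Fragment numbers are therefore approximate and enter no test.

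Named genes were the members, list genes past the test, the 2 most abundant of each list, tested genes within 1 Mb of Map2, and the 5 genes most like Map2. Other genes named, such as Clip4, Ttll7, Tubb3, Unc80, Erbb4, Atic, Dctn2, Dync1li1, the relatives of Stmn1 and Dclk1 and markers beyond the 2 most abundant, fall outside that rule and were chosen after their values were seen. The members and lists were chosen with earlier results of these data known. Of 212 listed genes 2 were not found in the table. The values of 1 marker gene are not reported here. Alternatives covered the pseudocount, the filter, 4 scalings, each library left out and a replicate block.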

Additional observations from a re-analysis of the deposited data

How the results depend on the processing

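The log2 change of Map2 ran from -1.63 to -1.45 with 1 library left out and reached -2.05 with a pseudocount of 0.1; the comparison chose this gene, so these values are no support for it. With the replicate block, a fit with the replicate number as a term, the count of members past the threshold was 0 against 1 and that of all genes 14 against 192. Same-numbered libraries did not deviate together (r = -0.0271, -0.0545 and -0.0461 for numbers 1 to 3). For libraries of different numbers r lay between -0.0242 and 0.0696. With 3 libraries per group these values cannot exclude that the numbers mark pairs. The count of all genes was 101 without the filter, 89 with the same FPKM total, 86 with that total without crystallins, and between 37 (without WT replicate 1) and 117 (without FNcKO replicate 1) with 1 library left out, lower by over 1.5 times whichever was left out. Calls higher in FNcKO were 45.3% as deposited and 57.9, 60.4, 70.8 and 76.7% with median-ratio, quantile, same-total and crystallin-free scaling. In the microtubule lists the count was 0 except with median-ratio scaling, where it was 1. The log2 ratio of the neuron marker sum went from -0.13 to 0.13 and 0.32, and that of the glia sum from -0.19 to 0.05 and 0.22, under the same-total scalings. The causes of these shifts were not tested. At 123 to 210 estimated fragments in FNcKO, Map2 is less precise there than in WT.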
